A study of Mus musculus with 8 samples.

Results

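The integrin and laminin genes were examined in RNA-seq counts of the P1 mouse cortex, in which 4 control libraries were compared with 4 dcKO_Nex-Cre (mutant) libraries. Members were all protein-coding genes whose symbols name an integrin alpha chain (*Itga* followed by digits, 2b, e, l, m, v or x), an integrin beta chain (*Itgb* followed by digits) or a laminin chain (*Lama*, *Lamb* or *Lamc* followed by 1 digit). This rule, which used no measured value, found 36 of the 48709 genes listed per library, of which 21695 are annotated as protein-coding. They comprised 17 integrin alpha, 8 integrin beta, 5 laminin alpha, 3 laminin beta and 3 laminin gamma genes.

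The dcKO_Nex-Cre mice carried floxed alleles of BAF155 (gene *Smarcc1*) and BAF170 (gene *Smarcc2*), core subunits of the BAF chromatin remodeling complex. Nex-Cre, which is active in postmitotic projection neurons of the cortex, removes both genes in these neurons. The controls were heterozygous for both floxed alleles, without Cre, so that the Cre allele and the deletion cannot be told apart. All mice were on a C57BL6/J background, and whole cortical tissue was taken on postnatal day 1. The labels do not say whether each library came from its own animal, so the p-values measure the spread between these libraries. Radial glia, interneurons, vessels, meninges and microglia of the mutant cortex keep both genes. In whole tissue, fewer cells of a type and less RNA per cell cannot be told apart.

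Integrins are receptors made of 1 alpha and 1 beta chain that anchor cells to extracellular matrix and couple it to the actin cytoskeleton. Laminins are secreted trimers of 1 alpha, 1 beta and 1 gamma chain that form the scaffold of basement membranes. In the developing cortex the endfeet of radial glia attach to the laminin-rich basement membrane under the meninges, and vessels have a basement membrane of their own. Several integrins and dystroglycan are receptors for laminin on these cells.

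The deleted genes were lower in all 4 dcKO_Nex-Cre libraries than in every control library. For *Smarcc2* the control mean was 462 ± 25.8 CPM and the mutant mean 263 ± 26.0 CPM (SD, n = 4 each), where CPM stands for counts scaled by edgeR's TMM library sizes to a common total. Its log2 fold change was -0.81 (adjusted p = 0.00267, edgeR quasi-likelihood test). For *Smarcc1* the levels were 148 ± 11.6 CPM and 102 ± 13.7 CPM (SD, n = 4 each), and the log2 fold change was -0.53 (adjusted p = 0.0348 by edgeR). Total counts were 17958641 to 35191912 per library. Lane tag 2 stood in the file names of every control and of mutant replicates 1 and 2, whereas mutant replicates 3 and 4 had lane tag 8, which holds no control. The call of *Smarcc1* was lost within lane tag 2 (-0.46, adjusted p = 0.0752), with the replicate number as a block (-0.54, adjusted p = 0.0578) and in 6 of 8 fits with 1 library left out, all by edgeR. For several members the value within lane tag 2 is given as well.

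Libraries stood apart in the members. dcKO_Nex-Cre replicate 4 was the lowest of its group for 20 of the 33 members tested (60.6%, against 37.8% of all genes tested), and dcKO_Nex-Cre replicate 2 was the highest for 15 (45.5%, against 18.8%). Control replicate 2 was the lowest of the controls for 22 (66.7%, against 34.8%). Mitochondrial genes took 6.87% of the counts of control replicate 2 and 6.15% of those of dcKO_Nex-Cre replicate 4, against 2.33% to 4.24% in the other libraries. The summed level of 10 meningeal fibroblast markers was 64.7 CPM in dcKO_Nex-Cre replicate 2 and 16.1 to 33.5 CPM in the other 7 libraries. Summed markers of the choroid plexus, a structure outside the cortex, ranged from 22.6 to 1349 CPM in the control and from 4.60 to 560 CPM in the dcKO_Nex-Cre cortex. The part of these differences in the results was not tested.

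Of the 36 members, 33 passed edgeR's filter on low counts. No member reached an adjusted p under 0.05 in the dcKO_Nex-Cre cortex (0 of 33), while 144 of the 16287 genes tested did (0.884%, with 0.375% higher and 0.51% lower). Before adjustment, 4 members had a p under 0.05 (12.1%, against 13.6% of all genes, 6.59% higher and 7.05% lower), namely *Itgal*, *Lamc1* and *Lama1* with higher and *Lamb3* with lower levels in the dcKO_Nex-Cre cortex. DESeq2's Wald test called 1 member, *Itgal*, and 2.78% of all genes with an adjusted p. With dcKO_Nex-Cre replicate 2 or control replicate 2 left out, edgeR called 0 members, whereas without dcKO_Nex-Cre replicate 4 it called 3, namely *Itgal*, *Lamc1* and *Lama2*, all higher, beside 3.98% of all genes called higher in that fit. The median log2 fold change was 0.010 for the members and 0.0043 for all genes tested, with 17 members above 0 (51.5%, against 50.9% of all genes) and 16 below. CPM did not overlap between the groups for *Itgal* and *Lamb3*, 2 of 33 members, against 8.0% of all genes (3.99% with the mutant higher and 4.01% with it lower).

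The 95% interval of the fold change lay within 1.5-fold in either direction for 16 of the 33 members, against 66.8% of all genes. Among the 10 members with at least 400 counts per library on average it did so for 9. For the remaining members, most of them with fewer counts, a change of 1.5-fold was not excluded by the interval. The 11 laminin genes had a median log2 fold change of 0.10, with 7 above 0, and the 22 tested integrin genes a median of -0.12, with 10 above 0.

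**Figure D1:**
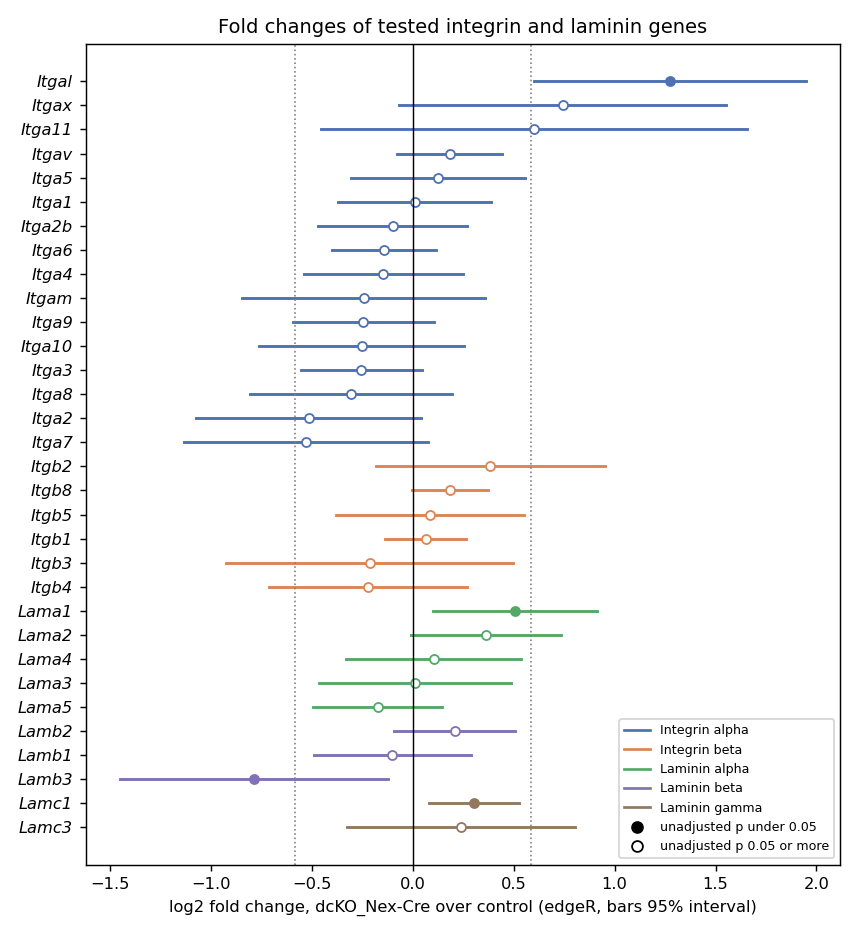
Log2 fold changes of 32 of the 33 tested members, dcKO_Nex-Cre over control, from edgeR, with 95% intervals as bars and a color for each chain class; dotted lines mark 1.5-fold. Filled points mark the 4 members with an unadjusted p under 0.05. Fold changes ran from -0.79 for *Lamb3* to 1.28 for *Itgal*.

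Levels were compared between genes per length, as CPM per kb of the gene's merged exons. *Itgb1*, whose product pairs with most alpha chains and is the common beta chain of laminin, collagen and fibronectin receptors, was the most abundant member, with control and mutant means of 38.4 ± 4.48 and 40.2 ± 1.78 CPM per kb (SD, n = 4 each). Next in the control came *Itgb5* at 8.39 ± 1.77 and *Lamc1* at 5.98 ± 0.498 CPM per kb (SD, n = 4 each). *Itgb8*, *Itga6*, *Lamb1*, *Lamb2* and *Itga3* followed at 5.43 ± 0.555, 4.27 ± 0.625, 4.15 ± 0.438, 3.31 ± 0.334 and 3.18 ± 0.140 CPM per kb (SD, n = 4 each). Of these, *Itga6* and *Lamb1*, and likewise *Lamb2* and *Itga3*, differed by less than their SDs. The length chosen affects the order. With the longest transcript in place of merged exons *Itga6* stood at 8.94 CPM per kb and moved from rank 5 to rank 3, and *Lamc1* at 6.50 CPM per kb from rank 3 to rank 6, while *Itgb1* stayed first.

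Summed per length, the integrin beta genes reached 53.3 ± 6.91 CPM per kb in the control and 56.3 ± 1.51 CPM per kb in the dcKO_Nex-Cre cortex (SD, n = 4 each), and the integrin alpha genes 15.4 ± 1.53 and 14.4 ± 1.43 CPM per kb (SD, n = 4 each). The laminin alpha genes summed to 4.20 ± 0.43 and 4.75 ± 0.83, the beta genes to 7.69 ± 0.73 and 7.80 ± 1.73, and the gamma genes to 7.0 ± 0.52 and 8.36 ± 1.44 CPM per kb (SD, n = 4 each, control first). *Itgb1* made up 72.2% of the integrin beta level in the control, *Lamc1* 85.5% of the laminin gamma level, and *Itga6* 27.7% of the integrin alpha level. In the control, the trimer chains with the highest level in their class were *Lama4*, *Lamb1* and *Lamc1*.

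**Figure D2:**
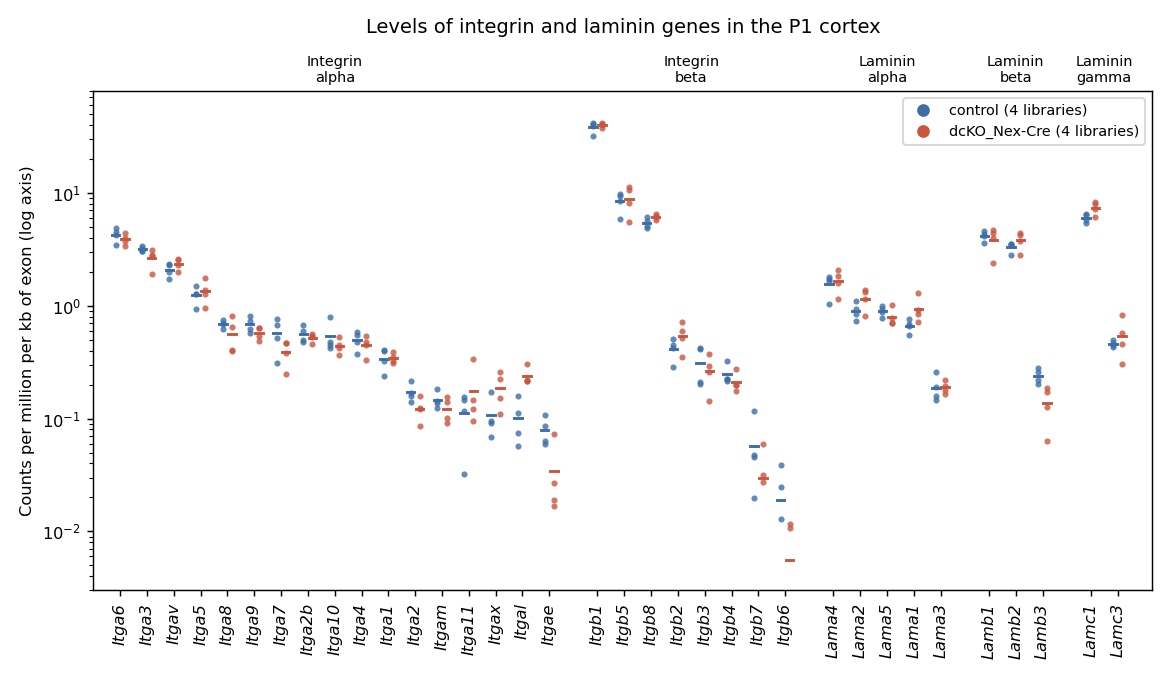
Levels of 35 of the 36 members in CPM per kb of exon on a log axis, ordered by control level within each chain class, with 1 point per library and a line at the mean of 4 control (blue) or 4 dcKO_Nex-Cre (red) libraries. Points at 0, which occur for *Itgb6* and *Itgb7*, cannot be drawn on this axis. *Itgb1* lies far above every other member in both groups.

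*Lamc1* (ENSMUSG00000026478, chromosome 1, 153218922 to 153332786 of GRCm38), the gamma chain of most laminins, was the laminin gene with the smallest p. Its CPM were 47.6, 44.6, 52.4 and 53.3 in control replicates 1 to 4 and 59.7, 68.1, 65.5 and 50.8 in dcKO_Nex-Cre replicates 1 to 4. Replicates 1, 2 and 3 of the mutant lay above every control, and replicate 4 lay among the controls. Its log2 fold change was 0.30 (SE 0.10, 95% interval 0.08 to 0.53, p = 0.0127, adjusted p = 0.225 by edgeR), and the two-sided exact permutation test over 70 regroupings gave p = 0.0857, where 0.0286 is the smallest it can give. Without dcKO_Nex-Cre replicate 4 the log2 fold change was 0.38 and passed the threshold (adjusted p = 0.0233, edgeR), but 1278 of all genes did so in that fit, compared with 144 in all 8 libraries. Within lane tag 2 it was 0.37 (adjusted p = 0.0796 by edgeR), and without dcKO_Nex-Cre replicates 2 and 4 it was 0.35 (adjusted p = 0.067 by edgeR).

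*Lama1* (ENSMUSG00000032796, chromosome 17, 67697259 to 67822647), the alpha chain of early embryonic and pial basement membranes, was at 5.31, 7.33, 6.68 and 6.39 CPM in control and 6.93, 12.5, 8.91 and 8.19 CPM in dcKO_Nex-Cre libraries. The groups overlapped, since replicate 1 of the mutant lay below control replicate 2, and mutant replicate 2 was highest. *Lama1* had a log2 fold change of 0.51 (SE 0.18, unadjusted edgeR p = 0.0189, adjusted p = 0.263 by edgeR; exact permutation p = 0.0571). It was 0.59 within lane tag 2 (adjusted p = 0.158) and 0.32 without mutant replicate 2 (adjusted p = 0.50, edgeR).

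*Lama2*, the alpha chain of laminin in muscle, nerve and vessel walls, was at 15.2, 11.9, 17.9 and 13.9 CPM in control and 21.4, 18.6, 22.3 and 13.2 CPM in dcKO_Nex-Cre libraries. Its log2 fold change was 0.36 (p = 0.0558, adjusted p = 0.380 by edgeR; exact permutation p = 0.143), with mutant replicate 4 inside the control range and replicates 1, 2 and 3 above it. Without that replicate it was 0.50 and passed (adjusted p = 0.0421 by edgeR), and within lane tag 2 it was 0.44 (adjusted p = 0.129 by edgeR). Values for *Lama2* are listed here because of that call and were chosen after they were seen.

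*Lama4* (chromosome 10, 38965515 to 39110188), known from vessel basement membranes, had the highest per-length level of the alpha chains. Its CPM were 20.8, 12.5, 19.8 and 21.7 in control and 22.1, 24.9, 19.4 and 13.9 in dcKO_Nex-Cre libraries. The groups overlapped, and the log2 fold change was 0.10 (95% interval -0.33 to 0.53, adjusted p = 0.841 by edgeR). The lowest library of each group, control replicate 2 and mutant replicate 4, lay apart from the others. The sign depended on single libraries, being -0.037 without control replicate 2 and -0.013 without mutant replicate 2, and it was 0.33 within lane tag 2 (adjusted p = 0.326 by edgeR). *Lama3* and *Lama5* were at 0.01 and -0.17 on the log2 scale, and their adjusted p-values were 0.985 and 0.610 (edgeR).

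*Lamb3* (ENSMUSG00000026639, chromosome 1, 193207699 to 193343878) encodes a laminin beta chain best known from the skin, where it joins the *Lama3* product. Its CPM were 1.33, 1.70, 1.46 and 1.85 in control and 1.13, 0.422, 1.24 and 0.842 in dcKO_Nex-Cre libraries, so all 4 mutant libraries lay below all 4 controls. These values rest on 137 counts in control and 95 in mutant libraries. The log2 fold change was -0.79 (SE 0.30, 95% interval -1.45 to -0.12, p = 0.0242, adjusted p = 0.287 by edgeR; exact permutation p = 0.0286). Within lane tag 2 it was -0.98 (adjusted p = 0.156), and without mutant replicate 2, the lowest library, -0.54 (adjusted p = 0.453, both by edgeR). *Lama3*, a partner chain, had a log2 fold change of 0.01 with an adjusted p of 0.985 (edgeR).

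*Lamb1* (chromosome 12, 31265234 to 31329644), the most abundant beta chain, was at 40.8, 35.4, 45.6 and 42.9 CPM in control and 43.3, 46.6, 39.6 and 23.5 CPM in dcKO_Nex-Cre libraries. Mutant replicate 4 lay below every control, while mutant replicate 2 lay above them all. The log2 fold change of -0.10 (95% interval -0.49 to 0.29, adjusted p = 0.826 by edgeR) changed sign without replicate 4 (0.073), within lane tag 2 (0.13) and without replicates 2 and 4 (0.018). *Lamb2*, a beta chain of vessel and neuromuscular basement membranes, had a log2 fold change of 0.21 (adjusted p = 0.521 by edgeR), which was 0.39 within lane tag 2 (adjusted p = 0.0933 by edgeR).

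**Figure D3:**
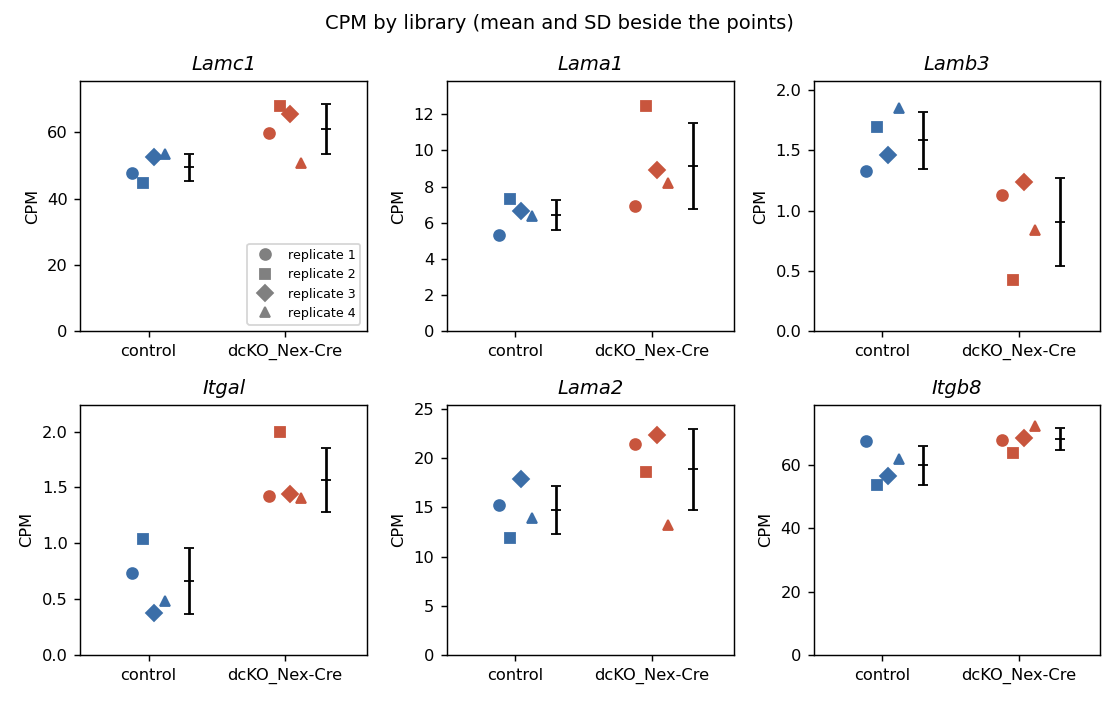
CPM of *Lamc1*, *Lama1*, *Lamb3*, *Itgal*, *Lama2* and *Itgb8* in each library, with a marker for each replicate number and the mean and SD of 4 libraries beside the points; axes start at 0. Mutant points lie apart from control points for *Itgal* and *Lamb3*, and 1 mutant library lies among the controls for *Lamc1*.

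*Lamc3*, *Lama1* and the collagen receptor chain *Itga11* were highest of all 8 libraries in dcKO_Nex-Cre replicate 2, at 5.02, 12.5 and 1.72 CPM. This was not particular to them. The same library was also highest for *Itga5*, *Itgav*, *Lama4*, *Lama5*, *Lamb1*, *Lamb2*, *Lamc1*, *Itgal* and *Itgb2*. The log2 fold change of *Lamc3* was 0.24 in all libraries, -0.030 without that replicate and 0.59 within lane tag 2, where the adjusted p was 0.131 (edgeR). For *Itga11*, on 52 counts in control and 91 in mutant libraries, it was 0.60, 0.052 and 0.87 in the same order. dcKO_Nex-Cre replicate 2 was also the library with the highest meningeal marker sum. Of the 10 meningeal markers tested, 8 had a fold change above 0, 1 had an unadjusted p under 0.05, and edgeR called 0. Among all genes tested these shares were 50.9%, 13.6% and 0.884%. The part of meningeal tissue in these values was not tested. *Lamc3* and *Itga11* were chosen here after their values were seen.

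**Figure D4:**
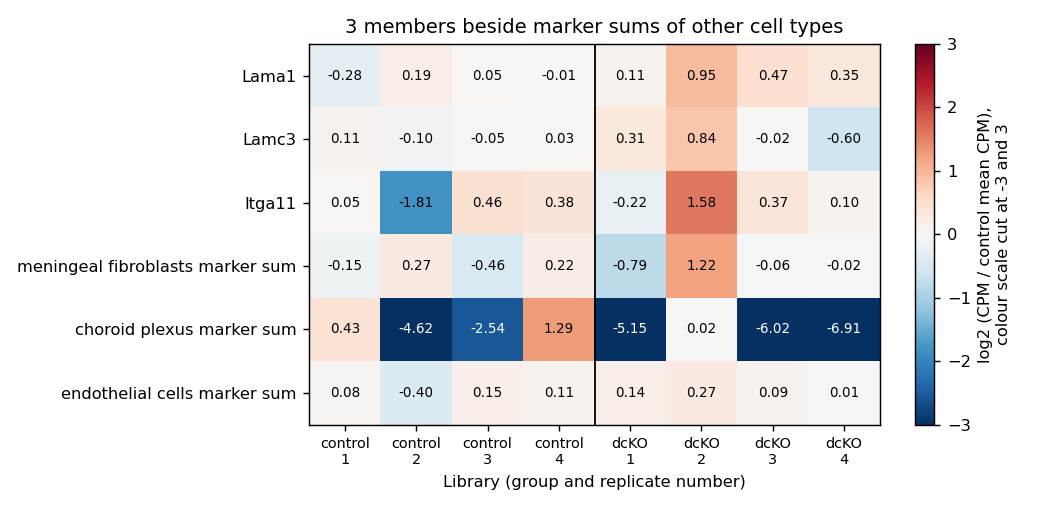
Log2 ratio of CPM in each library to the control mean for *Lama1*, *Lamc3* and *Itga11* and for the summed markers of meningeal fibroblasts, choroid plexus and endothelial cells; colors are cut at -3 and 3. dcKO_Nex-Cre replicate 2 is the highest library for the 3 genes and for the meningeal sum, as it is for several members not drawn here.

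The laminin-binding integrin alpha chains, *Itga3*, *Itga6* and *Itga7*, all had fold changes below 0, at -0.26, -0.14 and -0.53 on the log2 scale, and none was called (adjusted p = 0.426, 0.600 and 0.418 by edgeR). Mutant replicate 4 was the lowest of its group for all 3. Without it the log2 fold changes were -0.13, -0.08 and -0.37, and within lane tag 2 they were -0.11, -0.15 and -0.41. *Itga6* (ENSMUSG00000027111, chromosome 2, 71745616 to 71858416), the laminin receptor chain that pairs with beta1 or beta4, was at 40.5, 30.9, 38.4 and 44.3 CPM in control and 35.8, 33.8, 39.5 and 30.4 CPM in dcKO_Nex-Cre libraries. The groups overlapped, and the interval for *Itga6* ran from -0.40 to 0.11. *Itgb4* (chromosome 11, 115974709 to 116008412), the partner of alpha6 in hemidesmosomes of epithelia, was low, at 1.56, 1.59, 1.5 and 2.29 CPM in control and 1.39, 1.92, 1.24 and 1.40 CPM in dcKO_Nex-Cre libraries, for a log2 fold change of -0.22 (adjusted p = 0.682 by edgeR). Control replicate 4 lay above the other controls, and without it the log2 fold change of *Itgb4* was -0.055.

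*Itgb1* (ENSMUSG00000025809, chromosome 8, 128685654 to 128733200) had 170.0, 129.8, 161 and 166 CPM in control and 154, 167, 164 and 171 CPM in dcKO_Nex-Cre libraries. Apart from the low control replicate 2, all libraries lay close together. The log2 fold change was 0.06 (SE 0.09, 95% interval -0.14 to 0.26, adjusted p = 0.780 by edgeR) and -0.0071 without control replicate 2. As folds, this interval ran from 0.910 to 1.2.

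The RGD-binding alpha chains *Itgav*, *Itga5*, *Itga8* and *Itga2b*, receptors for fibronectin, vitronectin, nephronectin or fibrinogen, had log2 fold changes from -0.31 to 0.18. *Itgav* (ENSMUSG00000027087, chromosome 2, 83724397 to 83806916) was the most abundant of them per length, at 24.4, 18.4, 21.4 and 25.1 CPM in control and 24.9, 27.7, 27.4 and 21.4 CPM in dcKO_Nex-Cre libraries, with overlapping groups and a log2 fold change of 0.18 (adjusted p = 0.514 by edgeR). *Itga8*, whose product binds nephronectin, was at 5.13, 5.04, 4.59 and 5.55 CPM in control and 2.90, 4.79, 2.97 and 5.95 CPM in dcKO_Nex-Cre libraries, with mutant replicates 1 and 3 below and replicate 4 above every control. Its log2 fold change was -0.31 (adjusted p = 0.566) in all libraries and -0.78 (adjusted p = 0.0423, edgeR) without mutant replicates 2 and 4. That fit was chosen after the data were seen and left 2 mutant libraries.

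Among the beta chains *Itgb3*, *Itgb5*, *Itgb6* and *Itgb8*, which pair with alphav, *Itgb5* (chromosome 16, 33829665 to 33949338) was the most abundant per length. Its CPM were 33.5, 20.9, 30.0 and 34.8 in control and 39.9, 28.7, 37.8 and 19.8 in dcKO_Nex-Cre libraries, where replicates 1 and 3 lay above and replicate 4 below all controls. The log2 fold change was 0.09 (95% interval -0.38 to 0.55, adjusted p = 0.883 by edgeR) and lay between -0.049 and -0.0099 when control replicate 2, mutant replicate 1 or mutant replicate 3 was left out. Within lane tag 2 it was 0.21 (adjusted p = 0.578 by edgeR). *Itgb8*, which with alphav activates latent TGF-beta and is known from radial glia and astrocytes, was at 67.6, 53.7, 56.6 and 62.1 CPM in control and 67.9, 63.8, 68.8 and 72.3 CPM in dcKO_Nex-Cre libraries. Control replicate 1 lay within the mutant range, and the log2 fold change was 0.18 (95% interval -0.0042 to 0.37, p = 0.0545, adjusted p = 0.377 by edgeR; exact permutation p = 0.0571). Values of *Itgb8* were listed after they were seen. *Itgb3* had a log2 fold change of -0.21, and *Itgb6* was below the filter with 11 counts in control and 4 in mutant libraries.

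The collagen-binding alpha chains *Itga1*, *Itga2*, *Itga10* and *Itga11* were at 0.01, -0.52, -0.25 and 0.60 on the log2 fold scale, and the adjusted p ranged from 0.395 to 0.984 (edgeR). *Itga10* (chromosome 3, 96645584 to 96664519), a chain best known from cartilage, led this class per length of merged exons, at 2.47, 4.11, 2.17 and 2.33 CPM in control and 2.75, 2.34, 1.90 and 2.19 CPM in dcKO_Nex-Cre libraries. Control replicate 2 was the highest of all 8, and without it the log2 fold change of *Itga10* was -0.0031. Without dcKO_Nex-Cre replicate 2 that of *Itga11* was 0.052. With the longest transcript as length, *Itga1* stood above *Itga10* in the control, at 0.577 and 0.549 CPM per kb. *Gm42957* overlaps 33.5% of the *Itga10* exons on the same strand and had 1.0 count per library on average, so the split of reads between both is uncertain. *Itga1* and *Itga2* lie 21 kb apart on chromosome 13. *Itga4* and *Itga9*, receptor chains for fibronectin, VCAM1 and tenascin, had log2 fold changes of -0.15 and -0.25. *Itga9* (chromosome 9, 118606690 to 118901003) was the higher per length, at 5.68, 4.43, 4.80 and 6.21 CPM in control and 4.93, 4.91, 4.17 and 3.76 CPM in dcKO_Nex-Cre libraries, with an adjusted p of 0.513 (edgeR). The groups of both overlapped.

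The member with the smallest p was *Itgal* (ENSMUSG00000030830, chromosome 7, 127296260 to 127335138), the alpha chain of LFA-1, an integrin of leukocytes. Its CPM were 0.733, 1.04, 0.376 and 0.485 in control and 1.42, 1.99, 1.44 and 1.40 in dcKO_Nex-Cre libraries. All 4 mutant libraries lay above all 4 controls, on 55 counts in control and 161 in mutant libraries. For *Itgal* the log2 fold change was 1.28 (SE 0.31, 95% interval 0.60 to 1.95, p = 0.00155, adjusted p = 0.0892 by edgeR; exact permutation p = 0.0286). It passed the threshold with DESeq2's Wald test (1.29, adjusted p = 0.018), without a filter on low counts (1.29, adjusted p = 0.0306) and without mutant replicate 4 (1.32, adjusted p = 0.0367, both by edgeR). Without mutant replicate 2 it was 1.14 (adjusted p = 0.225, edgeR). Within lane tag 2 it was 1.39 (adjusted p = 0.0814, edgeR), and it could not be fitted when 10 counts were required in every library.

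The other leukocyte chains also had few counts. *Itgam* (chromosome 7, 128062640 to 128118491), encoding CD11b of microglia and macrophages, was at 0.687, 0.712, 0.626 and 0.925 CPM in control and 0.783, 0.460, 0.702 and 0.505 CPM in dcKO_Nex-Cre libraries, for a log2 fold change of -0.24 (adjusted p = 0.715 by edgeR). *Gm49368*, on the same strand, overlaps 68.7% of the *Itgam* exons and had 0.125 counts per library on average. How reads in the shared exons were counted is not known, so the level of *Itgam* is uncertain. In all, exons of 11 members overlap another annotated gene, 3 on the same and 8 on the opposite strand, and the counting is not stated to use strand. *Itgb2* (chromosome 10, 77530252 to 77565708), the common beta chain of these receptors, was at 1.56, 0.876, 1.29 and 1.37 CPM in control and 1.57, 2.18, 1.82 and 1.07 CPM in dcKO_Nex-Cre libraries, for a log2 fold change of 0.38 (adjusted p = 0.528 by edgeR). Both genes overlapped between the groups. *Itgax*, 11.1 kb from *Itgam* on chromosome 7, had a log2 fold change of 0.74 (adjusted p = 0.398 by edgeR), which was 0.26 within lane tag 2 (adjusted p = 0.739 by edgeR). *Itgae* and *Itgb7*, which form a receptor of intraepithelial lymphocytes, were below the filter, with 31 and 14 counts in control and 14 and 9 in mutant libraries.

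Markers of leukocytes were set beside these chains. Over all genes tested, 13.6% had an unadjusted p under 0.05, 0.884% were called and 50.9% had a fold change above 0 (edgeR). The 12 markers of microglia and macrophages summed to 152 to 179 CPM in control and 171 to 211 CPM in dcKO_Nex-Cre libraries, and 7 had a fold change above 0. With an unadjusted p under 0.05, 3 were higher and 1, *P2ry12*, was lower, at -0.57 (adjusted p = 0.0596 by edgeR). *C1qb*, a complement subunit gene, was called higher, with a log2 fold change of 0.46 (adjusted p = 0.0422 by edgeR). The 15 markers of blood cells summed to 85.5 to 140 CPM in control and 83.6 to 188 CPM in dcKO_Nex-Cre libraries. Of these, 8 were tested, all 8 with a fold change above 0. Among those tested, edgeR called 0, and 0 had an unadjusted p under 0.05. *Cd3e*, which defines T cells, was at 0 in all 8 libraries, which allows up to 3 counts in each for counting error alone. The part of leukocytes in the level of *Itgal* was not tested.

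Shares of a chain class and ratios within a library were also compared, since they do not depend on library scaling. The share of a gene in the summed per-kb level of its class did not overlap between the groups for 6 of the 36 members, of which 3 were higher and 3 lower in the dcKO_Nex-Cre cortex. For CPM itself 8.0% of all genes did not overlap, and class shares have no counterpart over all genes. Shares of 1 class are not independent of each other, and these genes were chosen after their values were seen, so no test is given. Besides *Itgal* and *Lamb3*, these were *Lamb1*, *Lamb2*, *Lama5* and *Itgav*. With lengths from the longest transcript, *Lama5* overlapped, at 12.7% to 15.1% in control and 9.36% to 12.9% in dcKO_Nex-Cre libraries, and the other 5 did not.

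*Lamb1* made up 52.7%, 53.8%, 55.8% and 53.4% of the laminin beta level in control replicates 1 to 4 and 50.0%, 51.0%, 50.3% and 44.5% in dcKO_Nex-Cre replicates 1 to 4. *Lamb2* made up 44.8%, 42.4%, 41.5% and 43.2% in control and 48.0%, 48.3%, 47.3% and 53.1% in dcKO_Nex-Cre libraries. Per count of *Lamb1* there were 0.457 to 0.521 counts of *Lamb2* in control and 0.576 to 0.733 in dcKO_Nex-Cre libraries. The ranges of this ratio did not overlap, and neither gene was called on its own. *Itgav* took 14.1%, 12.8%, 13.3% and 13.8% of the integrin alpha level in control and 15.4%, 16.8%, 17.1% and 16.2% in dcKO_Nex-Cre libraries. Counts of *Itgav* per count of *Itga6* were 0.559 to 0.602 in control and 0.694 to 0.821 in dcKO_Nex-Cre libraries.

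**Figure D5:**
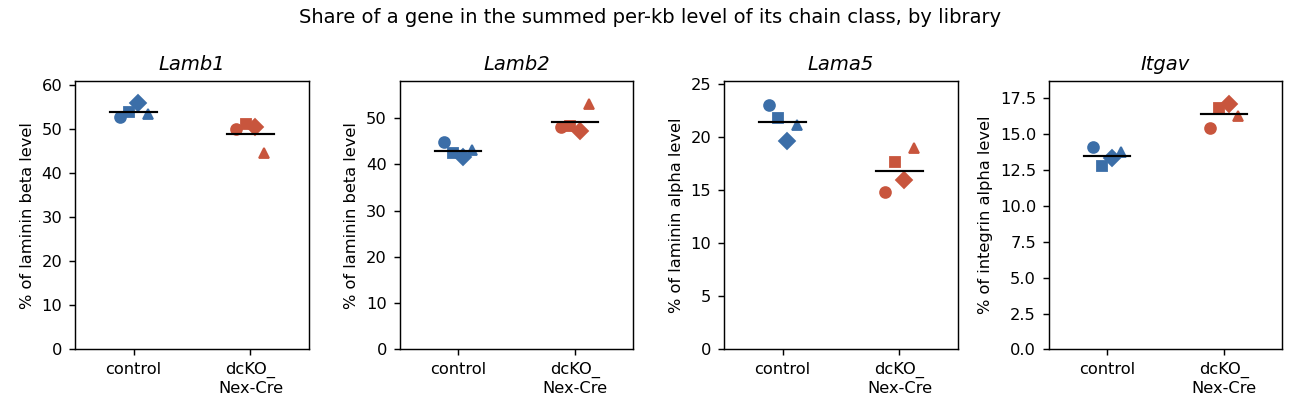
Share of *Lamb1*, *Lamb2*, *Lama5* and *Itgav* in the summed CPM per kb of their chain class, in percent, with a marker for each library's replicate number and a line at the group mean; axes start at 0. The control and dcKO_Nex-Cre libraries do not overlap in these 4 panels, which were picked for that.

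Genes that act with integrins and laminins were examined in 4 lists, in which edgeR called 0 genes and DESeq2's Wald test 0, 3, 1 and 2 in the order given here, against 0.884% and 2.78% of all genes. Up to 3 genes with the smallest p are described from each list, so a lack of overlap in them is not independent of that choice. Over all genes tested, 8.0% did not overlap. Of 40 integrin adaptors and activators, 38 were tested, and 1 had a higher and 2 a lower level with an unadjusted p under 0.05 (7.89%, against 13.6% of all genes), with a median log2 fold change of 0.0014. *Zyx*, encoding the focal adhesion protein zyxin, was at 30.9, 28.3, 32.8 and 31.6 CPM in control and 46.9, 41.5, 39.2 and 33 CPM in dcKO_Nex-Cre libraries, without overlap (log2 fold change 0.38, adjusted p = 0.146 by edgeR). *Rap1b*, a small GTPase that activates integrins, and *Cib1*, which binds integrin tails, had log2 fold changes of -0.40 and -0.24 (adjusted p = 0.258 and 0.342 by edgeR). The talin genes *Tln1* and *Tln2* were at -0.02 and -0.04, and *Ptk2*, the gene of focal adhesion kinase, at -0.01. *Fermt1* and *Ilk* did not pass the filter, with 5 and 16 counts in control and 8 and 24 in mutant libraries. How reads were counted is not given in the sources used here, so the few counts of *Ilk* need not reflect its expression. The talin, *Ptk2* and untested genes were named after their values were seen.

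Of 25 basement membrane partners of laminin, 24 were tested, and 2 were higher and 1 lower with an unadjusted p under 0.05 (12.5%, against 13.6% of all genes). Their median log2 fold change was 0.16. *Npnt*, encoding nephronectin, the ligand of the alpha8 integrin, was at 22.8, 20.9, 22.6 and 23.2 CPM in control and 30.4, 29.7, 29.0 and 26.0 CPM in dcKO_Nex-Cre libraries. Each mutant library lay above each control, and the log2 fold change was 0.37 (SE 0.08, adjusted p = 0.0712 by edgeR). *Smoc1*, a matricellular protein gene, and *Col15a1*, a basement membrane collagen gene, were at 0.38 and -0.65 (adjusted p = 0.135 and 0.136 by edgeR). *Col15a1* did not overlap between the groups.

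Of 25 genes of other laminin receptors and of the enzymes that glycosylate dystroglycan, 24 were found and tested, and 7 had an unadjusted p under 0.05 (29.2%, against 13.6% of all genes), 4 higher and 3 lower, with a median log2 fold change of 0.052. *Sdc2*, a syndecan gene, was at 28.8, 21.8, 26.9 and 29.8 CPM in control and 36.0, 38.1, 39.5 and 29.9 CPM in dcKO_Nex-Cre libraries (log2 fold change 0.42, adjusted p = 0.145 by edgeR). *Dmd*, encoding dystrophin, which links dystroglycan to actin, was at 53.0, 46.5, 46.9 and 50.3 CPM and 38.3, 39.1, 44.7 and 41.6 CPM (log2 fold change -0.26, adjusted p = 0.181 by edgeR). *Sdc1* was at 20.5, 17.3, 22.5 and 24 CPM and 17.1, 16.6, 14.8 and 17.1 CPM (log2 fold change -0.36, adjusted p = 0.187 by edgeR). None of these 3 genes overlapped between the groups, against 8.0% of all genes, but they were picked for the smallest p in the list. None passed the adjusted threshold. *Dag1*, the gene of dystroglycan itself, had a log2 fold change of 0.18 (adjusted p = 0.637 by edgeR), and was named after its value was seen.

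All 30 other integrin ligands were tested, of which 23 had a fold change above 0 (median 0.077), and 4 were higher and 2 lower with an unadjusted p under 0.05 (6 of 30, against 13.6% of all genes). *Tgfb3*, whose latent form is an alphav integrin ligand in TGF-beta activation, was at 7.33, 8.21, 8.72 and 9.07 CPM in control and 13.3, 12.8, 11.8 and 11.1 CPM in dcKO_Nex-Cre libraries. Its groups did not overlap, and its log2 fold change of 0.56 (SE 0.11) had an adjusted p of 0.0502 by edgeR, just above the threshold. *Ccn1*, a matricellular ligand of alphav and alpha6 integrins, and *Col5a1*, a fibrillar collagen gene, were at 0.61 and -0.53 (adjusted p = 0.120 and 0.176 by edgeR).

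Markers of the cells in which integrins and laminins are known were examined in the same fit. Of all genes tested, 13.6% had an unadjusted p under 0.05, 0.884% were called and 50.9% had a fold change above 0 (edgeR). The 12 endothelial markers summed to 228 to 335 CPM in control and 303 to 362 CPM in dcKO_Nex-Cre libraries, with 11 above 0. The 10 mural cell markers summed to 186 to 250 and 186 to 204 CPM, with 3 above 0. With an unadjusted p under 0.05, 1 endothelial marker was higher and 1 lower, and 2 mural cell markers were lower. In each list 0 were called by edgeR. The 12 markers of radial glia and astrocytes summed to 2738 to 3323 CPM in control and 2529 to 3064 CPM in dcKO_Nex-Cre libraries. Of these 12, 5 were above 0. With an unadjusted p under 0.05, 1 was higher and 2 were lower, and 0 were called by edgeR. The 7 markers of oligodendrocyte precursors, which summed to 189 to 282 and 276 to 343 CPM, were all above 0, 4 had an unadjusted p under 0.05, all higher, and *Cspg4* was called higher (0.56, adjusted p = 0.0355 by edgeR). The 10 markers of excitatory neurons had sums of 1106 to 1218 and 1048 to 1244 CPM, with 3 above 0. With an unadjusted p under 0.05, 1 was higher and 3 were lower, and *Emx1* was called lower (-0.60, adjusted p = 0.0332 by edgeR). The 9 interneuron markers, with sums of 798 to 937 and 701 to 843 CPM and 2 above 0, gave no edgeR call. Of them, 1 was lower with an unadjusted p under 0.05. Markers of cortical neurons were thus present in all 8 libraries. The part of these cells in the members' values was not tested.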

How the data were processed

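For 8 libraries of total RNA from whole cortex, unnormalized counts per Ensembl gene were deposited by the authors. The submitters' processing notes name mm10; aligner, counter, annotation and strand setting are not given in the sources used here. Genes were matched to GENCODE M21 (GRCm38) for symbols, positions and exon lengths (48349 of 48709). The groups were compared with edgeR 4.0.16 in R 4.3.3 (filterByExpr, TMM, robust quasi-likelihood F test, two-sided, no covariate), with Benjamini-Hochberg adjustment over 16287 genes. The procedure was tested on simulated counts, in which only genes with higher counts were changed and no library stood apart. That test does not cover members with few counts or the differences between single libraries seen here. Libraries of a group were not copies of each other (lowest chi-square per degree of freedom 3.77).

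Values of 1 member are not reported here, although it is part of the counts and sums over members. The members and lists were chosen with earlier results of these data known. Values per library are given for members with an unadjusted p under 0.05 or without overlap and for the member with the highest control level per length in each role class, and each pathway list names up to 3 genes with the smallest p. Alternatives were DESeq2 1.42.0, its size factors in edgeR, testing without a filter, 10 counts required of every library, the replicate number as a block, lane tag 2 only, each library left out, and the longest transcript as length. A fit without dcKO_Nex-Cre replicates 2 and 4 was added after seeing the data.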

Additional observations from a re-analysis of the deposited data

Results flagged for a closer look

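In 7 of the 90 groups of 4 libraries examined, 1 library lay far from the others of its group, where 4.5 are expected by chance at a rate of 1 in 20. In the control, *Itgb4* was at 2.29 CPM in replicate 4 against 1.5 to 1.59 in the others. Control replicate 2 stood apart for *Itga10* (4.11 CPM, others 2.17 to 2.47), for *Lamb2* (17.1 CPM, others 20.8 to 21.3), for the summed endothelial markers (228 CPM, others 317 to 335) and for the summed interneuron markers (937 CPM, others 798 to 817). In the dcKO_Nex-Cre cortex, *Itgal* was at 1.99 CPM in replicate 2 against 1.40 to 1.44 in the others, and the summed choroid plexus markers were at 560 CPM in replicate 2 against 4.60 to 15.6. Without dcKO_Nex-Cre replicate 2, *Itgal* had a log2 fold change of 1.14 (adjusted p = 0.225 by edgeR), and without control replicate 2 it had 1.57 (adjusted p = 0.0562 by edgeR).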

How the results depend on the processing

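The median log2 fold change of the members, 0.010 in all libraries, was 0.12 within lane tag 2. It was -0.063 to 0.048 when 1 library was left out, so its sign was not stable. Over other sets of members, it was -0.11 with 10 counts required of every library, -0.093 with DESeq2 and -0.090 without a filter. DESeq2 and the fit without a filter added *Itgb6*, *Itgae* and *Itgb7*, all below 0. The stricter filter left out *Itgal*, *Itgax*, *Itga11* and *Itgam*. These medians therefore do not show how the values of the same members moved. In place of 0 members with an adjusted p under 0.05, 1 was higher with DESeq2's Wald test and 1 without a filter (*Itgal* in both), 0 to 3 were higher when 1 library was left out (3 without dcKO_Nex-Cre replicate 4), and 1 was lower (*Itga8*) without dcKO_Nex-Cre replicates 2 and 4. Members with an unadjusted p under 0.05, 3 higher and 1 lower in all libraries, were 5 and 2 without a filter, 6 and 2 within lane tag 2, 5 and 3 without replicates 2 and 4, and 3 to 7 and 0 to 3 with 1 library left out. The share of all genes under this threshold was 13.6% in the main fit and is not given for the other fits. These counts therefore cannot be read as particular to the members.

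Called genes of the pathway lists, 0 in each in all libraries, were for the adaptors 2 within lane tag 2, 2 without dcKO_Nex-Cre replicates 2 and 4 and 0 to 6 with 1 library left out. For the basement membrane partners they were 3 with DESeq2, 1 without a filter, 2 within lane tag 2, 2 without both replicates and 0 to 4 with 1 library left out. Other laminin receptors gave 1 with DESeq2, 1 without both replicates and 0 to 3 with 1 library left out. Other ligands gave 1 with DESeq2 size factors, 2 with DESeq2, 2 without a filter, 1 with at least 10 counts, 1 within lane tag 2, 3 without both replicates and 0 to 3 with 1 library left out. The highest of these ranges was reached without dcKO_Nex-Cre replicate 4. Calls over all genes, 144 in all libraries, were 464, 259, 248 and 538 with DESeq2, without a filter, within lane tag 2 and without both replicates, and 18 to 1278 with 1 library left out, the highest without dcKO_Nex-Cre replicate 4. The cause was not tested.

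*Smarcc1* lost its call within lane tag 2 (-0.46) and in 6 of 8 fits with 1 library left out (-0.63 to -0.47), all by edgeR. With the replicate number as a block it was -0.54 (adjusted p = 0.0578), 54 genes were called in all, and no member was called. Deviations from the group means correlated by 0.13, 0.018, 0.13 and -0.14 between libraries of the same number, and 0 libraries correlated best with their own number. Differences between single libraries also enter these deviations, and the labels name no pairs. Whether the numbers pair the samples therefore cannot be told. Among the members described by the rule for values per library, signs reversed for *Itgam* without replicates 2 and 4 (0.024), for *Lamb1* within lane tag 2 (0.13) and without both replicates (0.018), and with 1 library left out for *Lamb1* (-0.20 to 0.073), *Itgb1* (-0.0071 to 0.11), *Itgb5* (-0.049 to 0.25) and *Lama4* (-0.037 to 0.24). Other members reversed as well. Examples are *Itga5* (-0.030) and *Lamc3* (-0.030) without mutant replicate 2 and *Itga1* (-0.11) without control replicate 2. *Lama3* did so without control replicate 1 (-0.088) and *Itga4* within lane tag 2 (0.025). With the longest transcript the control level per kb was 8.94 for *Itga6*, 3.10 for *Lama4*, 7.11 for *Lamb1* and 6.50 for *Lamc1*. *Itgal*, on 55 and 161 counts, had no value when 10 counts were required in every library.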
